A study of Homo sapiens with 11 samples.

Results

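The MYC, MAX and MXD network was followed through drug treatment and drug withdrawal of A375 melanoma cells as 10 genes: MYC, MYCN, MYCL, MAX, MXD1, MXI1, MXD3, MXD4, MNT and MGA. They were chosen by name for what their proteins do, and each matched 1 of the 58721 gene rows measured by RNA-seq. MYC, MYCN and MYCL are transcription factors that bind DNA only as pairs with MAX, at short E-box sites such as CACGTG, and raise the transcription of genes for ribosome production, metabolism and division. The MXD proteins (MXD1, MXI1, MXD3 and MXD4) and MNT pair with MAX at the same sites and bring the SIN3 and histone deacetylase corepressor. MGA carries MAX into a Polycomb complex, PRC1.6. ERK signalling, which is driven by mutant BRAF in melanoma, is known to raise MYC transcription and to stabilise the MYC protein, while MXD genes are known for their expression in resting and differentiating cells.

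A375 is an established human melanoma line with an activating BRAF mutation, labelled wild type in genotype here. Of the 11 poly(A) RNA libraries, 5 came from cells collected 4 weeks after trametinib had been withdrawn (withdrawn 1 to 5), 5 from persister cells selected in 2 nM trametinib for 8 weeks (persister 1 to 5), and 1 from parental cells with no treatment. Trametinib inhibits MEK, the kinase that activates ERK, and each withdrawn sample carries the name of the persister culture with its number. Separate selection of the cultures is not stated in the labels, so each p-value covers the spread between these libraries and that spread may be technical. The parental group, with 1 library, was taken to vary like the others.

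Libraries held 56513920 to 82984566 counts. Levels are given as CPM, read counts brought to a common library size with TMM factors, and as CPM per kb of exon where levels of different genes are compared. Differences are log2 fold changes from edgeR's quasi-likelihood test over 23693 genes, with Benjamini-Hochberg adjusted p-values and a threshold of 0.05. A gene past this threshold is called. The standard error (SE) was derived as the absolute log2 fold change divided by the square root of the test's F statistic. As a check of the drug labels, the ERK target SPRY4, a feedback inhibitor of receptor signalling, stood at 442 ± 60.7 CPM in withdrawn, 17.2 ± 7.95 in persister (SD, n = 5 each) and 445 CPM in parental cells. Summed levels of 10 melanocyte lineage genes were 1312 to 1420 CPM in withdrawn, 565 to 1199 in persister and 990.5 CPM in parental libraries, a sum that hides opposite changes: of the 9 tested, persister cells had 4 called higher and 3 called lower relative to parental cells. SOX10, a regulator of the lineage, averaged 814 CPM in withdrawn, 51.9 in persister and 635 CPM in parental cells, while the pigment gene DCT averaged 34.3 CPM in withdrawn, 424 in persister and 2.94 CPM in parental cells. Of 6 fibroblast genes, 4 (66.7%) were called higher in persister than in parental cells, against 16.1% of all genes. However, 3 of those 4 (COL1A2, COL3A1 and THY1) reached the low-count filter in persister and not in parental libraries. For these the filter fixed the direction of the difference. The fibroblast sum was 19.1 to 25.2 CPM in withdrawn, 21.9 to 64.1 in persister and 13 CPM in the parental library; their part in the results was not tested. The sums of 5 leukocyte, 3 endothelial and 3 keratinocyte genes stayed at or below 6.85 CPM in all libraries, with KRT1 at 0 counts throughout. In RNA from whole cultures, a change in the share of cells of a type and a change in RNA per cell cannot be told apart.

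The E-box CACGTG, which MYC-MAX and MXD-MAX pairs can both bind, was looked for in the 250 bases before the transcript starts that RefSeq annotates on GRCh38.p14. Of the 10 genes, 9 were matched with 14 such windows, and MYC is named only. The motif, which reads the same on both strands, was in the window of MXD4 and of MNT and in no other member's window, against 6.34% of 35116 windows over all genes. The windows are shown for these 2 genes and, beside them, for MXD1 and for the first of 3 starts of MXI1, because MXD1 and MXD4 on the one hand and MXI1 on the other lay on opposite sides of the other groups in persister cells. Each is printed 5′ to 3′ along the gene's strand, up to the first base that GENCODE 29 places in an exon of the gene, with the motif in capitals.
MXD4 chr4:2262295-2262359 (- strand): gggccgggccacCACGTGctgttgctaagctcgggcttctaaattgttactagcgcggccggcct
MNT chr17:2401119-2401310 (- strand): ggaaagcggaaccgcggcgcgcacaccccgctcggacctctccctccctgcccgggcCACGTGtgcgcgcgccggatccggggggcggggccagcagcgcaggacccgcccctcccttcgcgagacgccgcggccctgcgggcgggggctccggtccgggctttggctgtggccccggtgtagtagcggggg
MXD1 chr2:69914859-69915040 (+ strand): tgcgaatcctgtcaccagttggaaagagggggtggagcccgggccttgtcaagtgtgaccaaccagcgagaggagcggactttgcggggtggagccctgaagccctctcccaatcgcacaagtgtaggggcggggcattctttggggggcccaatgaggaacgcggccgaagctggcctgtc
MXI1 chr10:110207355-110207604 (+ strand): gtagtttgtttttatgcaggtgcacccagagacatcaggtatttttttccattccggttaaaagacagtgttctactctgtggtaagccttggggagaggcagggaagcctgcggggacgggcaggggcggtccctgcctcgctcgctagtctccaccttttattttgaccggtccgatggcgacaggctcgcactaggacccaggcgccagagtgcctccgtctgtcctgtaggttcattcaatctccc
The motif began 238 bases before the RefSeq start of MXD4 and 193 bases before that of MNT. These matches describe letters in a window and were not set against binding data.

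Most of the 10 genes were called between withdrawn and persister cells, and fewer between persister and parental cells. Between withdrawn and persister cells, 9 of 10 members were called: MYCN, MYCL, MXI1, MXD3, MNT and MGA were higher and MAX, MXD1 and MXD4 lower in withdrawn cells. Of all genes tested, 52.5% were called in that comparison, 24.5% higher and 28.0% lower. In 8 of the 10 members the ranges of the 5 withdrawn and 5 persister libraries did not overlap, against 40.6% of all genes. An unadjusted p under 0.05 was reached by 9 of the 10, against 58% of all genes. These tallies include MYCN, which passed the low-count filter through withdrawn libraries alone, so the filter fixed its direction. Without it 8 of 9 members were called, 5 higher and 3 lower. Of those 9, 7 did not overlap and 8 had an unadjusted p under 0.05. Between persister and parental cells, 4 of 10 members were called, MXD4 as higher and MYCL, MXI1 and MGA as lower in persister cells, while 31.2% of all genes were called, 16.1% higher and 15.1% lower. The parental library lay outside the persister range for 9 of the 10 members, against 63.6% of all genes, and 5 were past an unadjusted p of 0.05, against 43% of all genes. Between withdrawn and parental cells edgeR called 0 of 10 members, with a background of 0.431%. At an unadjusted p under 0.05, 3 members passed there (MYCN, MAX and MGA), against 15.2% of all genes. The parental library lay outside the withdrawn range for 9 of the 10, against 63.8% of all genes. MYCN was again let through the filter by withdrawn libraries alone, which fixed its direction here too, though it was not called. Without it 2 of 9 members passed, and the parental library lay outside the withdrawn range for 8 of 9. DESeq2 called 1 (MAX, log2 fold change -0.46, adjusted p = 0.0266), limma-voom called 0, and a fit of only the 6 withdrawn and parental libraries called 5 (MYCN, MXI1 and MXD4 higher, MAX and MGA lower). Over all genes, DESeq2 called 1184, limma-voom 107 and the fit of those 6 libraries 6593, against 102 with edgeR on all libraries. MYCN, with 0 parental counts, is among the 5 members of the 6-library fit. The comparisons share libraries, so their counts are not independent of one another.

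**Figure D1:**
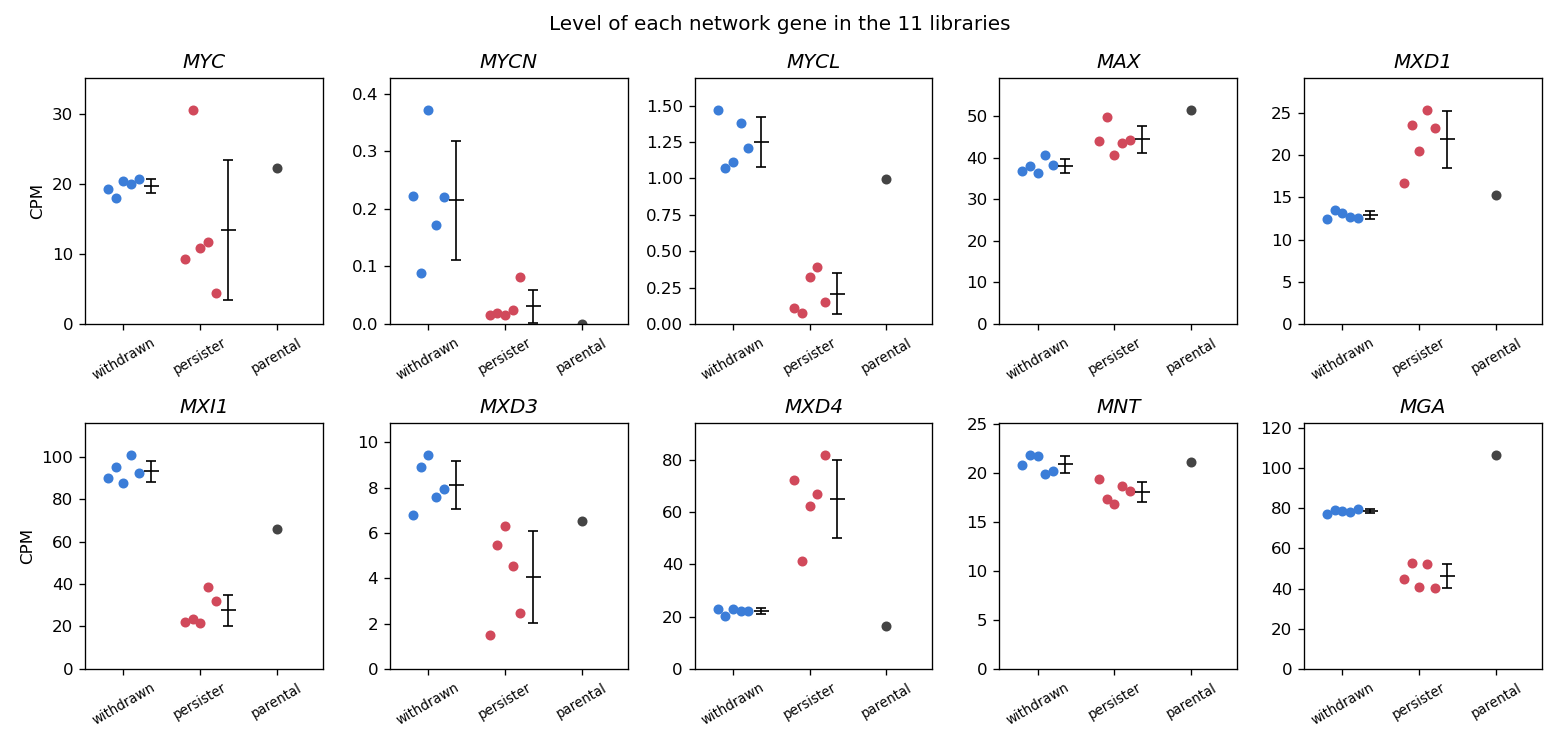
Level of each of the 10 genes in CPM (linear vertical axes from 0, a separate scale for each gene) in the withdrawn, persister and parental libraries, 1 point a library, with mean and SD for the groups of 5. MXI1 and MGA lie lower and MXD4 higher in every persister library than in every withdrawn library, while MYC is spread between 4.38 and 30.5 CPM among persister libraries.

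MYC, the family member with broad activity in growing cells, lies on chromosome 8 (ENSG00000136997). It stood at 19.3, 18.1, 20.4, 20.03 and 20.6 CPM in withdrawn libraries 1 to 5, at 9.26, 30.5, 10.9, 11.7 and 4.38 CPM in persister libraries 1 to 5, and at 22.3 CPM in the parental library. Persister 2 lay above every other library and the other 4 persister libraries lay below every withdrawn library, so the groups overlapped. MYC was not called in any comparison: its log2 fold change was -0.74 ± 0.65 for persister against parental cells (adjusted p = 0.405), 0.56 ± 0.40 for withdrawn against persister cells (adjusted p = 0.254) and -0.18 ± 0.67 for withdrawn against parental cells (adjusted p = 0.936). Without persister 2 the value was -1.30 for persister against parental cells (adjusted p = 0.0165) and 1.12 for withdrawn against persister cells (adjusted p = 0.0024), past the threshold in both. The coefficient of variation of MYC was 5.31% among withdrawn and 74.9% among persister libraries.

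The spread of MYC among persister cultures stood beside a spread in division genes. The mean log2 CPM of 20 S phase and mitosis genes was 6.94 to 7.07 in withdrawn libraries, 5.57, 7.27, 6.80, 6.79 and 4.30 in persister libraries 1 to 5 and 7.22 in the parental library. Persister 2 was the highest of the 5 persister libraries in both MYC and division genes, and persister 5 the lowest in both. MKI67, the proliferation marker Ki-67, ranged from 553 to 685 CPM in withdrawn and from 45.4 to 707 CPM in persister libraries, and stood at 865 CPM in the parental library. In a list of 12 ERK output genes persister 2 was also the highest but persister 5 was not the lowest, with a mean log2 CPM of 7.56 to 7.72 in withdrawn libraries, 5.30, 6.05, 5.50, 5.32 and 5.42 in persister libraries 1 to 5 and 7.63 in the parental library. Whether the proliferation of a culture has a part in its MYC level was not tested.

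**Figure D2:**
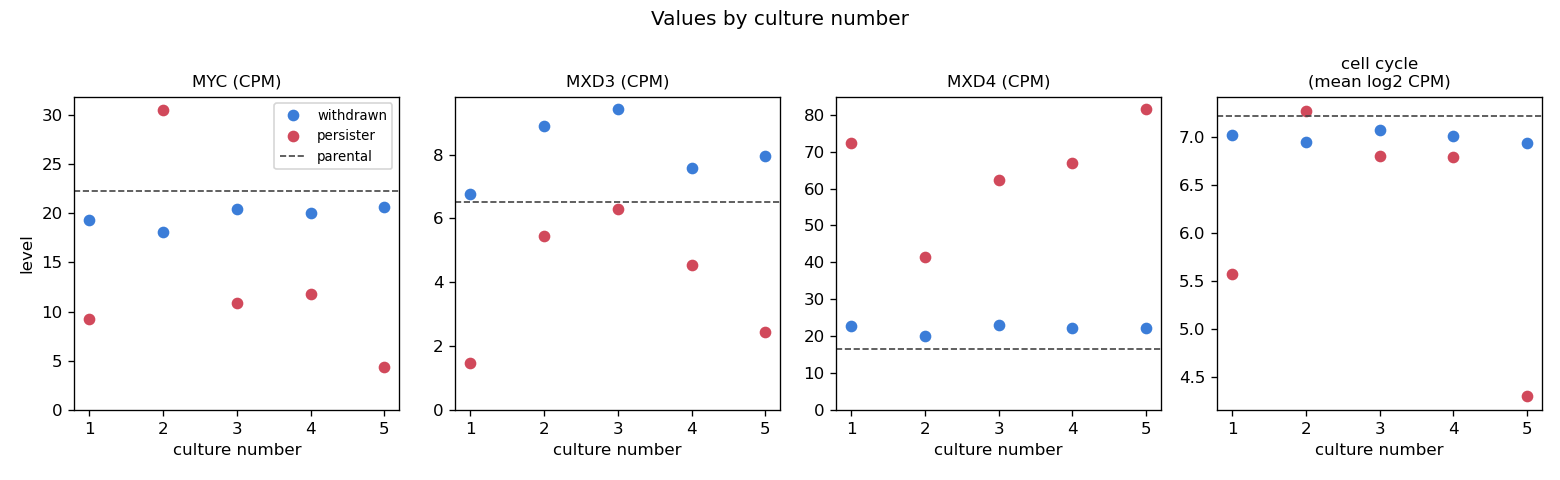
MYC, MXD3 and MXD4 levels (CPM, axes from 0) and the mean log2 CPM of 20 cell cycle genes (axis not from 0) against culture number, with withdrawn and persister libraries as points and the parental library as a dashed line. Persister 2 has the highest MYC and cell cycle values and the lowest MXD4 among persister cultures, and persister 5 the lowest MYC and cell cycle values and the highest MXD4.

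Within cultures, MYC was higher after withdrawal in 4 of 5. Its log2 ratio of withdrawn over persister was 1.06, 0.91, 0.77 and 2.24 in cultures 1, 3, 4 and 5, and -0.76 in culture 2. The other 9 genes moved the same way in all 5 cultures, MAX, MXD1 and MXD4 downward and the rest upward. For all of them but MAX the withdrawn and persister ranges did not overlap, so the cultures had to move the same way. That also holds for the 40.6% of all genes whose ranges did not overlap.

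MYCL, the relative first found in lung cancer (ENSG00000116990, chromosome 1, 39895426 to 39902256 on the minus strand), fell in persister cells. Its level was 1.47, 1.07, 1.11, 1.38 and 1.21 CPM in withdrawn libraries 1 to 5, 0.107, 0.0738, 0.319, 0.389 and 0.150 CPM in persister libraries 1 to 5, and 0.994 CPM in the parental library. Every withdrawn library and the parental library lay above every persister library. The log2 fold change was -2.22 ± 0.57 for persister against parental cells (adjusted p = 0.0125) and 2.55 ± 0.39 for withdrawn against persister cells (adjusted p = 0.000221). A fit of the 6 persister and parental libraries alone ended the first of these calls (adjusted p = 0.103).

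MYCN, the relative amplified in neuroblastoma (ENSG00000134323, chromosome 2, 15940564 to 15947007 on the plus strand), was close to the limit of detection. It had 15, 5, 25, 12 and 16 counts in withdrawn libraries 1 to 5, 1, 1, 1, 2 and 6 counts in persister libraries 1 to 5, and 0 counts in the parental library. All 5 withdrawn libraries lay above all persister libraries in CPM, though withdrawn 2 (0.0876 CPM) and persister 5 (0.0819 CPM) nearly met. MYCN was called higher in withdrawn than in persister cells (log2 fold change 2.69 ± 0.58, adjusted p = 0.00227), a direction that the filter fixed, as no persister or parental library reached its minimum. The 73 counts pooled over withdrawn libraries were at least 4.75-fold higher than a floor of 3 counts in the parental library, a bound for counting error only. Per kb of exon, MYC made up 95.2% ± 0.600 of the summed MYC family level in withdrawn, 98.2% ± 1.45 in persister (SD, n = 5 each) and 97.4% in parental cells.

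MAX, the shared partner of all the other members (ENSG00000125952, chromosome 14, 65006174 to 65102695 on the minus strand), changed little. It stood at 36.8, 38.1, 36.4, 40.8 and 38.2 CPM in withdrawn libraries 1 to 5, at 44.1, 49.7, 40.6, 43.5 and 44.3 CPM in persister libraries 1 to 5, and at 51.4 CPM in the parental library. Withdrawn 4 lay just above persister 3, and the other withdrawn libraries lay below all persister libraries. The log2 fold change was -0.22 ± 0.07 for withdrawn against persister cells (adjusted p = 0.0239), a fall that lost its call without withdrawn 1 (0.0535), without withdrawn 3 (0.0543) or with no low-count filter (0.0836). Against parental cells MAX was not called in withdrawn cells (-0.43 ± 0.12, adjusted p = 0.135) or persister cells (-0.21 ± 0.13, adjusted p = 0.223).

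Among the repressive partners of MAX, the 2 most abundant MXD genes moved in opposite directions. MXI1, also called MXD2 (ENSG00000119950, chromosome 10, 110207605 to 110287365 on the plus strand), fell in persister cells. Its level was 89.9, 94.9, 87.5, 101 and 92.5 CPM in withdrawn libraries 1 to 5, 22.3, 23.7, 21.6, 38.6 and 31.8 CPM in persister libraries 1 to 5, and 66.0 CPM in the parental library. All persister libraries lay below all the others. The log2 fold change was -1.26 ± 0.24 for persister against parental cells (adjusted p = 0.00256) and 1.75 ± 0.16 for withdrawn against persister cells (adjusted p = 3.9e-06), a 3.37-fold difference.

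MXD4 (ENSG00000123933, chromosome 4, 2247432 to 2262294 on the minus strand), a member known in the mouse from differentiating cells and the one with an E-box among the MXD windows shown, was the single member called higher in persister than in parental cells. It stood at 22.8, 20.2, 22.9, 22.1 and 22.2 CPM in withdrawn libraries 1 to 5, at 72.3, 41.4, 62.2, 66.8 and 81.6 CPM in persister libraries 1 to 5, and at 16.5 CPM in the parental library. Persister 2, the library with the highest MYC, had the lowest MXD4 of the persister group, and still lay above every withdrawn library. The log2 fold change was 1.97 ± 0.30 for persister against parental cells (adjusted p = 0.000649), or 3.93-fold, and -1.56 ± 0.15 for withdrawn against persister cells (adjusted p = 7.29e-06). Against parental cells MXD4 was not called after withdrawal (0.42 ± 0.27, adjusted p = 0.494), and neither was MXI1 (0.50 ± 0.27, adjusted p = 0.419). For both genes the parental library still lay below every withdrawn library. The parental library lay outside the withdrawn range for 63.8% of all genes.

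MXD1, also called MAD1, the founding MXD protein (ENSG00000059728, chromosome 2, 69897688 to 69942945 on the plus strand), had the same direction as MXD4 at a smaller size. Its level was 12.5, 13.5, 13.2, 12.7 and 12.6 CPM in withdrawn libraries 1 to 5, 16.7, 23.6, 20.5, 25.3 and 23.2 CPM in persister libraries 1 to 5, and 15.3 CPM in the parental library. All persister libraries lay above all the others. It fell in withdrawn against persister cells (-0.76 ± 0.11, adjusted p = 0.000163) and was 0.51 ± 0.20 for persister against parental cells, which missed the threshold (adjusted p = 0.0732) but passed it without persister 1 (0.60, adjusted p = 0.0128).

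MXD3, a member known in the mouse from S phase cells (ENSG00000213347, chromosome 5, 177301461 to 177312757 on the minus strand), stood at 6.77, 8.90, 9.42, 7.57 and 7.95 CPM in withdrawn libraries 1 to 5, at 1.48, 5.46, 6.30, 4.54 and 2.45 CPM in persister libraries 1 to 5, and at 6.52 CPM in the parental library. Persister 1 and 5, the cultures with the lowest cell cycle values, were also the lowest in MXD3, and no persister library reached the lowest withdrawn one. The rise in withdrawn against persister cells (1.01 ± 0.33, adjusted p = 0.0232) lost its call without withdrawn 2 (0.0521) or withdrawn 3 (0.0550). MXD3 shares 18.0% of its exon bases with RAB24 on the same strand and 22.5% with PRELID1 on the opposite strand, so its counts are uncertain. PRELID1 itself was lower in withdrawn than in persister cells (-0.31 ± 0.10, adjusted p = 0.0214), the opposite direction to MXD3. RAB24 was not called there (-0.29 ± 0.15, adjusted p = 0.123). Whether shared reads have a part in the MXD3 change was not tested.

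**Figure D3:**
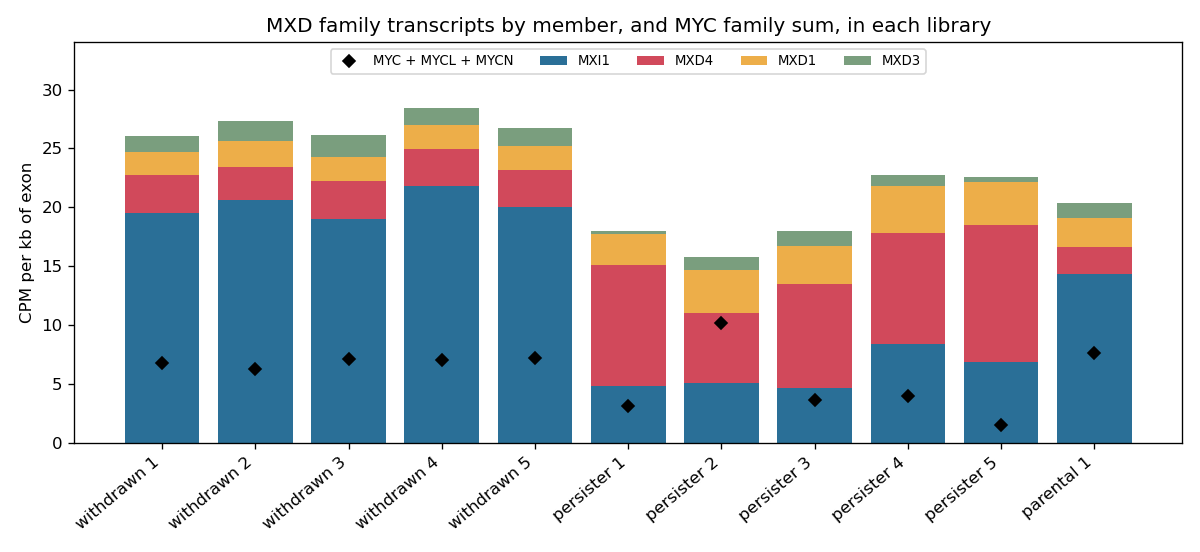
Stacked bars give the levels of MXI1, MXD4, MXD1 and MXD3 in CPM per kb of exon (vertical axis from 0) in each library, and diamonds the sum of MYC, MYCL and MYCN on the same scale. MXI1 holds 72.6 to 76.8% of the bar in withdrawn libraries, 26.1 to 36.9% in persister libraries and 70.4% in the parental library.

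The opposite changes altered which MXD gene led the family. Per kb of exon, the summed MXD level was 26.9 ± 0.986 CPM per kb in withdrawn, 19.4 ± 3.10 in persister (SD, n = 5 each) and 20.4 in parental cells. MXI1 made up 75.0% ± 1.51 of that sum in withdrawn, 30.6% ± 4.38 in persister and 70.4% in parental cells. For MXD4 the share was 11.6% ± 0.862 in withdrawn, 47.2% ± 7.81 in persister and 11.5% in parental cells. The ratio of MXD4 to MXI1 was 0.139 to 0.171 in withdrawn and 1.13 to 2.11 in persister libraries, with 0.163 in the parental library, so MXD4 exceeded MXI1 in all 5 persister libraries and in none of the others.

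The balance of MXD to MYC family transcripts varied most among persister cultures. The ratio of summed levels per kb was 3.65 to 4.36 in withdrawn libraries, 5.79, 1.55, 4.86, 5.68 and 14.9 in persister libraries 1 to 5, and 2.67 in the parental library. Persister 2 lay below and the other 4 persister libraries above all withdrawn libraries. These are transcript levels per exon length and say nothing of protein amounts, which are not analysed here.

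MNT, the repressor present in most growing cells (ENSG00000070444, chromosome 17, 2384060 to 2401118 on the minus strand), was among the steadiest members. It stood at 20.7, 21.8, 21.7, 19.8 and 20.1 CPM in withdrawn libraries 1 to 5, at 19.4, 17.3, 16.8, 18.6 and 18.1 CPM in persister libraries 1 to 5, and at 21.0 CPM in the parental library. The lowest withdrawn library lay just above the highest persister library. MNT shares 12.2% of its exon bases with an antisense gene that had 0 counts in all libraries. The small rise in withdrawn against persister cells (0.21 ± 0.08, adjusted p = 0.0402) lost its call under 11 of 19 alternatives, among them the removal of any 1 withdrawn library or of persister 2 or 3 (adjusted p from 0.0521 to 0.0992). With the culture number as a block it was 0.19 (adjusted p = 0.111).

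MGA, a protein with both a T-box and a MAX-binding domain (ENSG00000174197, chromosome 15, 41621224 to 41773081 on the plus strand), fell in persister cells. Its coefficient of variation was 1.17% among withdrawn and 13.2% among persister libraries. Its level was 77.3, 79.0, 78.5, 78.3 and 79.8 CPM in withdrawn libraries 1 to 5, 44.8, 52.8, 40.9, 52.4 and 40.1 CPM in persister libraries 1 to 5, and 106 CPM in the parental library. The groups were fully separate, with withdrawn libraries between persister and parental ones. The log2 fold change was -1.20 ± 0.14 for persister against parental cells (adjusted p = 0.000143), 0.77 ± 0.09 for withdrawn against persister cells (adjusted p = 3.17e-05) and -0.44 ± 0.15 for withdrawn against parental cells (adjusted p = 0.202).

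**Figure D4:**
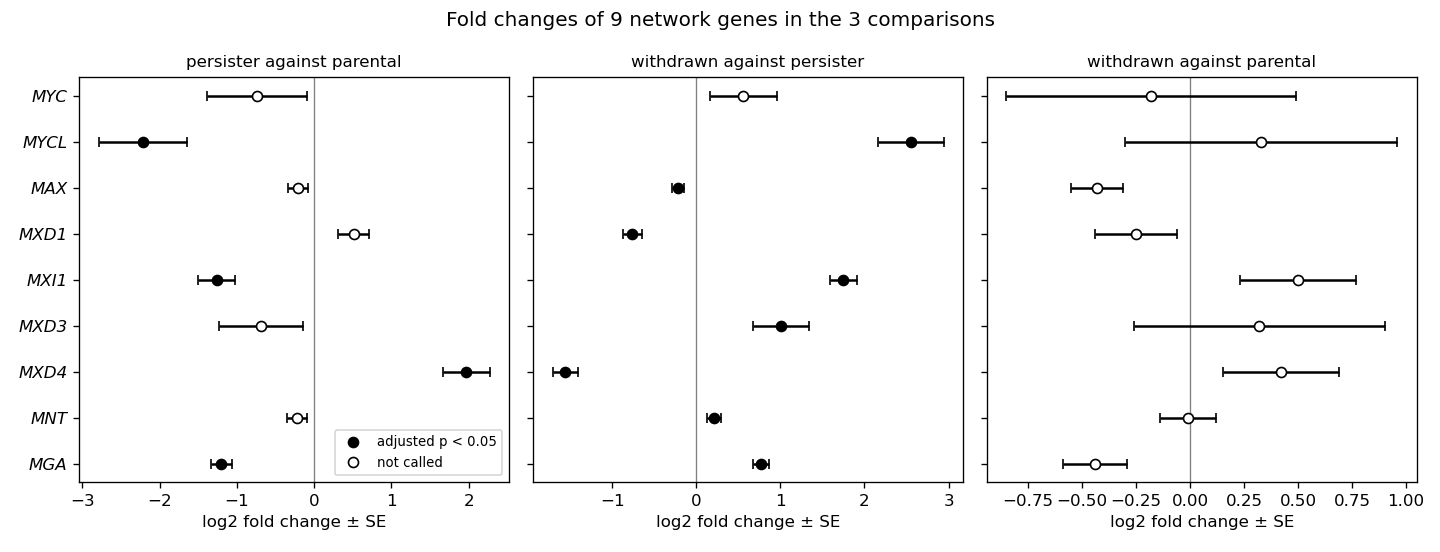
Log2 fold changes with SE (horizontal axes, a different scale in each panel) of 9 members for persister against parental, withdrawn against persister and withdrawn against parental cells, with filled points for adjusted p under 0.05. MYCN, with 0 counts in the parental library, is not drawn; MXD4 and MXD1 lie opposite to MXI1, MXD3 and MGA in both of the first 2 panels.

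The order of levels per kb of exon differed between states. In withdrawn cells MXI1 led at 20.2 ± 1.10 CPM per kb, followed by MAX (8.59 ± 0.386), MYC (6.56 ± 0.349), MGA (4.45 ± 0.0522), MXD4 (3.12 ± 0.156), MNT, MXD1, MXD3, MYCL and MYCN, and no 2 neighbours in that order overlapped. Persister cells were led by MAX at 10.0 ± 0.744 CPM per kb, then MXD4 (9.19 ± 2.12), MXI1 (5.99 ± 1.601), MYC (4.45 ± 3.33), MXD1 (3.45 ± 0.529) and MGA (2.62 ± 0.345), where each gene's range overlapped that of the next. MNT, MXD3, MYCL and MYCN came after these in persister cells, with overlap only between MYCL and MYCN. In the parental library the order was MXI1 (14.3), MAX (11.6), MYC (7.42), MGA (6.02), MXD1, MNT, MXD4, MXD3, MYCL and MYCN.

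The genes most like MYC over the 11 libraries, by Pearson correlation of log2 CPM among 9789 protein-coding genes, were ARF6 (0.982), TRMT5 (0.980), EXOSC9 (0.979), AGPAT5 (0.979) and TEAD4 (0.979). Within the network MGA (0.717) and MXD3 (0.714) were nearest to MYC. For MXD4 the nearest were ZDHHC9 (0.994), NCSTN (0.993) and BMP1 (0.992), with MXD1 (0.813) nearest within the network. For MAX they were STXBP4 (0.934), YWHAG (0.926) and CSNK1G1 (0.912). These values describe 3 states and a few spread-out persister cultures, share each library's scaling, and carry no test.

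Of 9 genes of the SIN3 and histone deacetylase complex, 0 were higher and 2 lower in persister against parental cells, and 3 were higher and 1 lower in withdrawn against persister cells. The called shares of 22.2% and 44.4% were below the 31.2% and 52.5% of all genes called in these comparisons. SIN3A, the scaffold that MXD proteins and MNT bind, averaged 121 ± 2.92 CPM in withdrawn, 78.9 ± 9.42 in persister and 151 CPM in parental cells. It fell in persister against parental cells (-0.94 ± 0.14, adjusted p = 0.000558) and rose in withdrawn against persister cells (0.62 ± 0.09, adjusted p = 9.92e-05), as did the deacetylase gene HDAC2 (0.51 ± 0.11, adjusted p = 0.00228). The median log2 fold change of the 9 genes was -0.31 for persister against parental cells, against 0.09 for all genes, and 0.15 for withdrawn against persister cells, against -0.03 for all genes.

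Of 9 partners of MGA in PRC1.6, 2 were higher and 3 lower in persister against parental cells, and 4 were higher and 2 lower in withdrawn against persister cells, which is 55.6% and 66.7% of the list, against 31.2% and 52.5% of all genes. The ubiquitin ligase genes RING1 and RNF2, which are paralogs, went in opposite directions. RING1 averaged 26.5 CPM in withdrawn, 37.4 in persister and 23.8 CPM in parental cells, and its log2 fold change was 0.65 ± 0.14 for persister against parental cells (adjusted p = 0.00417). RNF2 averaged 36.9 CPM in withdrawn, 26.1 in persister and 42.9 CPM in parental cells, with -0.72 ± 0.19 (adjusted p = 0.0145). E2F6, the DNA-binding partner of the complex, was lower in persister than in parental cells (-0.92 ± 0.18, adjusted p = 0.00324), as was CBX3 (-0.63 ± 0.21, adjusted p = 0.0404), while L3MBTL2 was higher (0.37 ± 0.12, adjusted p = 0.0403).

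MLX, a MAX-like protein that also pairs with MXD1, MXD4 and MNT, was not called in any comparison, at 90.9 ± 4.37 CPM in withdrawn, 85.2 ± 9.51 in persister and 94.0 CPM in parental cells. Its partner gene MLXIP, which encodes MondoA, was not called either. MLXIPL, which encodes ChREBP, stood at 0.417 CPM in withdrawn, 0.0546 in persister and 0.214 CPM in parental cells. MLXIPL was called higher in withdrawn than in persister cells (adjusted p = 0.00164), but no persister library reached the low-count filter, which it passed through the withdrawn and parental libraries. TXNIP, a glucose uptake inhibitor driven by MondoA and MLX, averaged 304 ± 50.6 CPM in withdrawn, 168 ± 47.6 in persister and 26.5 CPM in parental cells. TXNIP was called in all 3 comparisons: 2.66 ± 0.42 for persister against parental (adjusted p = 0.0009), 0.86 ± 0.20 for withdrawn against persister (adjusted p = 0.00365) and 3.52 ± 0.45 for withdrawn against parental cells (adjusted p = 0.0107). ARRDC4, the other target listed, rose in withdrawn against persister cells (0.84 ± 0.14, adjusted p = 0.000456). Unlike TXNIP, it was not called for persister against parental (0.39 ± 0.25) or withdrawn against parental cells (1.23 ± 0.27).

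Of 13 cofactors bound by MYC, 1 was higher and 3 lower in persister against parental cells, and 2 were higher and 2 lower in withdrawn against persister cells. That is 30.8% of the list in each comparison, no more than the 31.2% and 52.5% of all genes called. CCNT1, the cyclin of the elongation kinase P-TEFb, averaged 138 ± 4.91 CPM in withdrawn, 70.0 ± 8.77 in persister and 152 CPM in parental cells (persister against parental -1.12 ± 0.14, adjusted p = 0.000227). TRRAP, the scaffold of MYC's acetyltransferase complexes, was also lower in persister than in parental cells (-0.84 ± 0.17, adjusted p = 0.00371), whereas the acetyltransferase gene KAT2A was higher (0.68 ± 0.13, adjusted p = 0.0022).

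Of 12 genes that set the stability of the MYC protein, 2 were higher and 3 lower in persister against parental cells, and 3 were higher and 4 lower in withdrawn against persister cells. These shares, 41.7% and 58.3%, were near the 31.2% and 52.5% of all genes called. GSK3B, the kinase that marks MYC for destruction, averaged 227 ± 19.8 CPM in withdrawn, 117 ± 11.6 in persister and 299.6 CPM in parental cells (persister against parental -1.35 ± 0.14, adjusted p = 6.7e-05). USP28, which removes ubiquitin from MYC, was lower too (-0.90 ± 0.17, adjusted p = 0.00235). The ubiquitin ligase gene STUB1 was higher in persister than in parental cells (1.01 ± 0.18, adjusted p = 0.00207), but it shares 42.4% of its exon bases with JMJD8 on the opposite strand and is uncertain.

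Targets that MYC is known to induce did not move as a block. Of 20 ribosome biogenesis genes, 0 were higher and 4 lower in persister against parental cells, and 4 were higher and 3 lower in withdrawn against persister cells, which is 20% and 35% of the list, below the 31.2% and 52.5% of all genes. With 1 library left out in turn, the lower count for persister against parental cells was 2 to 6, and the counts for withdrawn against persister cells were 2 to 5 higher and 2 to 6 lower, the 6 lower without persister 5. Their median log2 fold changes were -0.31 and -0.06 in these comparisons, against 0.09 and -0.03 for all genes. POLR1B, a subunit of RNA polymerase I, averaged 131 ± 3.63 CPM in withdrawn, 65.5 ± 10.8 in persister and 157 CPM in parental cells (persister against parental -1.26 ± 0.17, adjusted p = 0.000311), and UTP20 also fell there (-1.17 ± 0.30, adjusted p = 0.0135). NOP16 (-0.53 ± 0.12, adjusted p = 0.00255) and RRP9 (-0.49 ± 0.15, adjusted p = 0.0195) fell and GNL3 rose (0.58 ± 0.15, adjusted p = 0.00671) in withdrawn against persister cells. Between withdrawn and parental cells 0 of the 20 were called in the fit of all libraries, and 17 were called lower in the fit of those 6 libraries alone. Over all genes the fit of 6 libraries called 3110 lower, against 28 in the fit of all libraries.

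The mean level of the ribosome biogenesis list followed the same extremes as MYC. It was 6.38 to 6.45 log2 CPM in withdrawn libraries, 6.36, 6.71, 6.43, 6.47 and 5.79 in persister libraries 1 to 5, and 6.81 in the parental library. Persister 2 was the highest and persister 5 the lowest of the persister group here too. These extremes were not particular to MYC targets. The same libraries were highest and lowest for the MYC cofactors (6.31 and 5.82), the MYC stability genes (6.56 and 6.01) and the cell cycle genes (7.27 and 4.30). For the SIN3 complex persister 4 was the highest (6.64), and for the PRC1.6 partners persister 1 was the lowest (5.19).

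Of 17 MYC-induced genes of growth and metabolism, 1 was higher and 1 lower in persister against parental cells, and 3 were higher and 5 lower in withdrawn against persister cells, or 11.8% and 47.1% of the list, below the shares of all genes. Without persister 2 these became 5 lower in persister against parental cells and 7 higher in withdrawn against persister cells, and without persister 5 the counts for persister against parental cells were 3 higher and 4 lower. TFRC, the transferrin receptor, averaged 127 ± 13.8 CPM in withdrawn, 470.5 ± 105 in persister and 508.5 CPM in parental cells, and was called lower in withdrawn than in persister cells (-1.90 ± 0.15, adjusted p = 2.06e-06) and than in parental cells (-2.01 ± 0.23, adjusted p = 0.0033). TERT, the telomerase reverse transcriptase, rose in withdrawn against persister cells (1.70 ± 0.45, adjusted p = 0.00759), at 1.63 CPM in withdrawn, 0.504 in persister and 1.78 CPM in parental cells. CCND2, cyclin D2, was the gene called higher in persister than in parental cells (adjusted p = 0.0319), at low levels of 0.0528 CPM in withdrawn, 0.514 in persister and 0.0459 CPM in parental cells. It passed the low-count filter through persister libraries alone, so the filter fixed this direction. The same holds for its lower call in withdrawn against persister cells. EIF4A1 was called lower in persister than in parental cells (-2.28 ± 0.31, adjusted p = 0.000349), but it shares 41.1% of its exon bases with AC016876.2 and 29.8% with the read-through gene SENP3-EIF4A1, both on the same strand, and is uncertain.

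Of 7 genes that MYC is known to repress, 6 were tested, and 3 were higher and 1 lower in persister against parental cells, or 66.7% against 31.2% of all genes. CDKN1A, the gene of the cyclin kinase inhibitor p21, averaged 77.1 ± 9.17 CPM in withdrawn, 512 ± 76.4 in persister and 60.6 CPM in parental cells. GAS1, a growth arrest gene, averaged 8.47 ± 0.930 CPM in withdrawn, 27.8 ± 5.80 in persister and 5.35 CPM in parental cells (persister against parental 2.38 ± 0.30, adjusted p = 0.000205). NDRG1, a stress-responsive gene, went the other way, at 91.5 ± 3.78 CPM in withdrawn, 10.0 ± 1.34 in persister and 78.6 CPM in parental cells (persister against parental -2.97 ± 0.14, adjusted p = 1.56e-07). In withdrawn against persister cells 2 of these genes were higher, NDRG1 (3.19 ± 0.10, adjusted p = 6.69e-09) and CDKN1B (0.68 ± 0.11, adjusted p = 0.000245), and 3 were lower. That is 83.3% of those tested, against 52.5% of all genes. The lower ones were CDKN1A (-2.73 ± 0.13, adjusted p = 5.17e-08), GAS1 (-1.72 ± 0.15, adjusted p = 3e-06) and GADD45A (-0.74 ± 0.13, adjusted p = 0.000538), a DNA damage response gene.

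Of the 20 cell cycle genes, 0 were called either way in persister against parental cells and 2 were higher in withdrawn against persister cells, the replication helicase genes MCM6 (0.91 ± 0.31, adjusted p = 0.0291) and MCM3 (0.56 ± 0.22, adjusted p = 0.0481). These are 0% and 10% of the list, below the 31.2% and 52.5% of all genes. Without persister 5, the library with the lowest cell cycle level, 4 were lower in persister against parental cells and 4 higher in withdrawn against persister cells; without persister 2, 3 were lower in persister against parental cells. Leaving out persister 1 or withdrawn 1, 2, 3 or 5 left 0 called higher in withdrawn against persister cells. Of 12 ERK output genes, 10 were lower in persister against parental cells and 11 higher in withdrawn against persister cells, or 83.3% and 91.7% against 31.2% and 52.5% of all genes, with medians of -1.73 and 1.91. DUSP6, the ERK phosphatase, averaged 186 ± 9.28 CPM in withdrawn, 24.8 ± 4.78 in persister and 168 CPM in parental cells, though it shares 40.5% of its exon bases with a gene on the opposite strand. The median of the 10 network members was -0.46 for persister against parental cells, where that of all genes was 0.09. For withdrawn against persister cells it was 0.66, where that of all genes was -0.03. Both member medians include MYCN, which had 0 counts in the parental library and whose direction between withdrawn and persister cells the filter fixed.

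**Figure D5:**
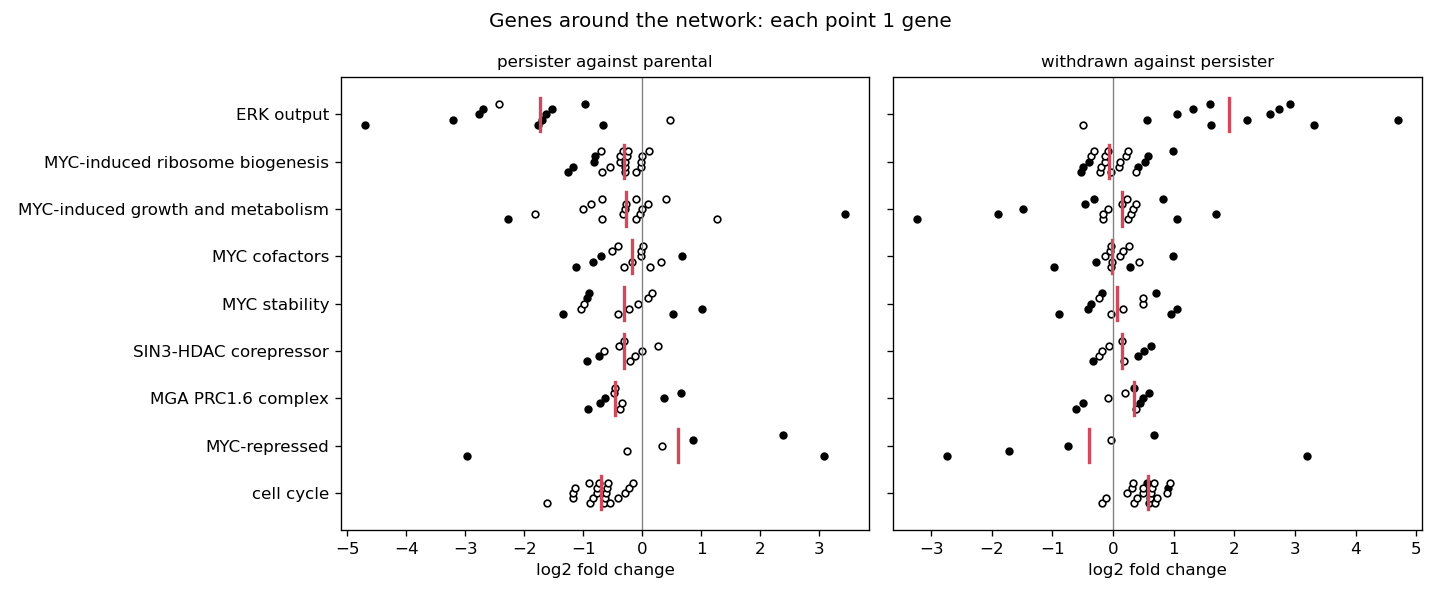
Each point is the log2 fold change of 1 gene (horizontal axes) in 9 lists of genes around the network, for persister against parental and withdrawn against persister cells, with filled points for adjusted p under 0.05 and red bars at list medians. ERK output genes lie mostly far from 0 (medians -1.73 and 1.91), while the medians of the MYC-induced lists lie between -0.31 and 0.14.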

How the data were processed

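The authors deposited read counts per gene for 11 libraries as 1 table of whole numbers, not normalized. Per the labels' protocols, column-purified RNA went into a stranded mRNA kit. The submitters' processing notes name bcl2fastq, HISAT2, HTSeq and hg38; versions, annotation and strand setting were not given in the sources used here, so opposite-strand overlaps may mix. All 58721 IDs matched GENCODE 29, which gave symbols, GRCh38 coordinates and exon lengths.

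Tests of the counts used edgeR 4.0.16 under R 4.3.3 (filterByExpr, minimum count 10 and total 15; TMM; robust quasi-likelihood fit of 3 groups, 8 residual degrees of freedom), with 23693 genes tested, and the fit was tested on simulated data. Alternatives used DESeq2 1.42.0 and limma 3.58.1. CPM used the same scaling; likeness was measured on log2 CPM (prior count 2) among genes with mean log2 CPM of at least 3. Withdrawn samples are named after persister cultures, which pairs them; deviations of same-numbered libraries correlated at 0.0484, 0.0587, 0.0735, 0.0737 and 0.0909, each above any other number's.

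The members, lists and naming rule (all members; up to 2 genes a direction of each list with the smallest adjusted p) were chosen with earlier results of these data known. MLX, MLXIP, GADD45A, SOX10, DCT, COL1A2, COL3A1, THY1, and CBX3 and TFRC against parental cells were added after their values were seen. Some genes that the rule names are left out of the text.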

Additional observations from a re-analysis of the deposited data

Results flagged for a closer look

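MYC in persister 2 stood apart from the other persister libraries, at 30.5 CPM against 4.38 to 11.7 CPM, with a gap to its nearest neighbour of 0.719 of the group's range where 0.71 is the critical value for 5 libraries. MYCN in persister 5 stood apart likewise, at 0.0819 CPM or 6 counts against 1 or 2 counts, with a gap of 0.863 of the range. Of 20 groups examined, chance flags about 1.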

How the results depend on the processing

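Under 18 or 19 alternatives (another test, scaling, low-count filter, samples in the fit, or 1 library less), members called numbered 4 to 5 for persister against parental cells and 6 to 9 for withdrawn against persister cells when 1 library was left out. Over all genes, 6474 to 8849 and 10973 to 12942 were called in those fits. In the fit of the persister and parental libraries alone 3 members were called, 1 higher and 2 lower. For withdrawn against parental cells members called numbered 0 to 0 with 1 library left out, 1 with DESeq2, 5 in the fit of those 6 libraries alone (MAX adjusted p = 0.000743, MXI1 0.00068, MGA 0.00013) and 2 without persister 1 and 5, a setting chosen after seeing the data. That comparison rests on 1 parental library, and its genes called were 102, against 1184 with DESeq2, 155 with the stricter filter, 6593 with the 6 libraries, 2086 without persister 1 and 5, and 23 to 558 when 1 library was left out. For persister against parental cells, 7391 genes were called in the fit of all libraries and 2569 in that of their 6 libraries. With upper-quartile scaling the split for withdrawn against parental cells was 57 higher and 38 lower, against 74 and 28 with TMM. MNT turned direction for withdrawn against parental cells without withdrawn 4 (0.00, against -0.01), over a range of -0.04 to 0.00 when 1 library was left out. With the culture number as a replicate block 7 members were called, and 10630 genes in all. MNT lost its call, MYCN was not tested, and no other member's call changed. Of the counts for gene lists, 1095 stayed within 1.5 times and 115 moved, among them the lower count of SIN3 complex genes for persister against parental cells (2 to 4 with 1 library left out) and of PRC1.6 partners (2 to 4). The cause was not tested.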
